A study of Mus musculus with 4 samples.

Results

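Senescence regulators and nuclear lamins are a set of 9 mouse genes, chosen by gene ID from the count table: the cyclin-dependent kinase (CDK) inhibitor genes Cdkn2a, Cdkn2b and Cdkn1b, the retinoblastoma gene Rb1, the lamin genes Lmna and Lmnb1, the chromatin protein genes Hmgb1 and Hmgb2, and the deacetylase gene Sirt1. They are 9 of the 53465 gene IDs in the table. The choice was made by name, with no rule on measured values, but earlier results of these data were known when it was made. The data are ribosome footprint counts, that is, counts of the short RNA fragments that ribosomes shield from nuclease, from 2 libraries of MLE-12 cells given 5 µM 1-nitropyrene for 12 h (replicates 2 and 3) and 2 libraries of MLE-12 cells cultured for the same time without it (control, replicates 1 and 2). MLE-12 is a mouse lung epithelial line, used to stand for alveolar type 2 cells, the surfactant-making cells of the lung. It was immortalised with the SV40 large T antigen, which binds the retinoblastoma protein and p53, so every library of either group comes from cells that carry this antigen. 1-Nitropyrene is a nitroarene found in diesel exhaust particles. The series concerns translation and epithelial senescence under this compound.

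Senescence is a lasting exit from the cell cycle. CDK inhibitors keep the retinoblastoma protein unphosphorylated, and in that form it holds back the E2F factors that drive S phase genes. Loss of lamin B1 from the nuclear lamina and loss of HMGB1 or HMGB2 from nuclei are widely used markers of senescent cells, and a rise of the INK4 inhibitors p16 and p15, encoded by Cdkn2a and Cdkn2b, is another. The lamin B1 and HMGB markers concern proteins in the nucleus. Footprint counts measure neither the level nor the location of a protein.

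The 1-nitropyrene libraries held 1243186 and 1357034 counts and the control libraries 1261372 and 1136145. Of the 53465 IDs, 7719 passed the filter on low counts, and 7 of the 9 genes were among them. Levels are given as CPM, counts scaled to a common library size (1e6) with TMM, a method that assumes most genes do not change. Changes were tested with edgeR's quasi-likelihood test, and genes were called where the p-value, adjusted by Benjamini and Hochberg's method across the 7719 genes, lay under 0.05. Of these, 17.3% were called in either direction, 9.68% higher and 7.58% lower in 1-nitropyrene cells. With 2 libraries a group, an exact permutation test of a single value cannot go below p = 0.333. The labels do not state whether a group's libraries are of separate cultures, and the p-values thus measure a spread that may be technical. Footprint counts reflect both the amount of mRNA and its ribosome load, and these cannot be told apart here. Levels of different genes were not compared, since no transcript lengths were used. Ratios of counts of 2 genes, given below, are to be read only for their change between the groups.

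The INK4 locus is shown first because its genes had no footprint counts. Cdkn2a lies at chr4:89274473-89294619 and Cdkn2b at chr4:89306289-89311032, 11669 bases apart (RefSeq, GRCm38.p6, the assembly that mm10 names). Cdkn2a has 2 transcription starts 12427 bases apart, from which the overlapping transcripts for p19ARF and p16INK4a are made, and a count on its ID cannot separate them. Sequences around these starts and that of Cdkn2b are printed from RefSeq's table, 250 bases before to 50 after the start on the gene's strand. The upstream of 2 Hmgb1 starts and the Hmgb2 start are added, since of this related pair Hmgb1 was called lower and Hmgb2 was not called. The upstream Cdkn2a start is that of the ARF transcript and the downstream one that of the INK4a transcript. RefSeq's table held windows for 7 of the 9 genes. Capitals mark CCAAT (or ATTGG, its other strand), the box bound by NF-Y, and GGGCGG (or CCGCCC), the GC box bound by Sp1 family factors.
Cdkn2a, upstream start, chr4:89294570-89294869, minus strand: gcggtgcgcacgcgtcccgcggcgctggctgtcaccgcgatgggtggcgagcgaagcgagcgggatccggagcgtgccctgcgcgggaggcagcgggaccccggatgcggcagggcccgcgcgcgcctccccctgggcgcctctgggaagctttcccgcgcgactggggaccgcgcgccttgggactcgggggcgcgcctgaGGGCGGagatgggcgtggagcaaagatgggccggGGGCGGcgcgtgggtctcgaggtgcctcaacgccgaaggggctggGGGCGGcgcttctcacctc
Cdkn2a, downstream start, chr4:89282143-89282442, minus strand: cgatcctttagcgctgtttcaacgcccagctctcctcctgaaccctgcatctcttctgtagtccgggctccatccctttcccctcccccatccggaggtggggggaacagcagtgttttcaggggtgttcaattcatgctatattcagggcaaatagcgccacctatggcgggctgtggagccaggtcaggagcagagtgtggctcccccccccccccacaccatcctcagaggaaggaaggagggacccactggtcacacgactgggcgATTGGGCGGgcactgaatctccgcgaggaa
Cdkn2b, chr4:89310983-89311282, minus strand: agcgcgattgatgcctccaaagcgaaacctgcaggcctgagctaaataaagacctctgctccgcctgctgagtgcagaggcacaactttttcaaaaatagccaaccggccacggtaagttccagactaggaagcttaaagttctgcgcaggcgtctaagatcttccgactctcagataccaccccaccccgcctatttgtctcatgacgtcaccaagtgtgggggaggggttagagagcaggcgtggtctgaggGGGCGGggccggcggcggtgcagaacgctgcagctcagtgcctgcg
Hmgb1, upstream start, chr5:149053008-149053307, minus strand: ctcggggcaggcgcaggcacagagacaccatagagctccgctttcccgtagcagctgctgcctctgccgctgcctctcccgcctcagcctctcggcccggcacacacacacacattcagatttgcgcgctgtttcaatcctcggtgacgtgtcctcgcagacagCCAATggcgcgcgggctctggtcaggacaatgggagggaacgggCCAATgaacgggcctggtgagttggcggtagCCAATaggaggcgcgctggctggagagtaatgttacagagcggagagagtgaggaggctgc
Hmgb2, chr8:57511593-57511892, plus strand: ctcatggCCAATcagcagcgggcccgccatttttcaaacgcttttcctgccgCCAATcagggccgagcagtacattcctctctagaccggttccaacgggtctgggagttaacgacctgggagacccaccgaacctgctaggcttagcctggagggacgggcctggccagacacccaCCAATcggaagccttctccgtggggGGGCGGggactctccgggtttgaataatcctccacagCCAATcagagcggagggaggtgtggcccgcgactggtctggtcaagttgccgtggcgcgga

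The Hmgb2 window held 4 CCAAT matches and 1 GC box, and the upstream Hmgb1 window 3 CCAAT matches and 0 GC boxes. The downstream Hmgb1 window (chr5:149051567-149051866, not printed) held 0 CCAAT matches and 4 GC boxes. The upstream Cdkn2a window held 0 CCAAT matches and 3 GC boxes, and the Cdkn2b window 0 and 1. In the downstream Cdkn2a window 1 CCAAT match on the other strand overlaps 1 GC box. Among all 32851 windows of this length, 37.4% held a CCAAT match and 35.7% a GC box. Of the windows not printed, that of Sirt1 held 0 CCAAT matches and 7 GC boxes, and that of Cdkn1b 3 and 1. The upstream Lmna window held 0 and 1, and the downstream one 1 and 0. Whether such matches go with the calls was not tested. These matches describe the letters of the windows and are not binding sites measured here.

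Cdkn2a (ENSMUSG00000044303), the gene of p16INK4a and p19ARF, had 0 counts in both 1-nitropyrene libraries and 0 in both control libraries. Cdkn2b (ENSMUSG00000073802), the gene of p15INK4b, also had 0 counts in each of the 4 libraries. At these depths a count of 0 allows up to 3 counts per library, or 2.58 and 2.38 CPM in 1-nitropyrene replicates 2 and 3 and 2.28 and 2.53 CPM in control replicates 1 and 2, limits that cover counting error only. A count of 0 in every library was common in the table, at 39727 IDs (74.3%). That share is over all IDs of any gene type. RefSeq lists both genes as protein-coding, and the share among protein-coding genes alone was not computed. In RefSeq the noncoding RNA gene Gm12610 (lncRNA) overlaps Cdkn2b. How reads on overlapping genes were assigned is not given in the sources used here, and the limits above do not cover reads left out for this. Neither gene passed the filter, so neither was tested, and a rise that stays under these limits was not detectable at this depth.

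Cdkn1b, the gene of the CDK inhibitor p27Kip1 (ENSMUSG00000003031, chr6:134920401-134925525), was the member of the inhibitor group with footprint counts. It had 176 and 177 counts in the 1-nitropyrene libraries and 134 and 147 in the control libraries, or 151 and 140 CPM against 102 and 124 CPM. Both 1-nitropyrene libraries lay above both controls, but the controls differed 1.22-fold from each other. The 1-nitropyrene level was 1.29 times the control level, with a 95% interval of 1.06 to 1.58, and did not pass the threshold over all genes (edgeR log2 fold change 0.37 ± 0.15 SE, unadjusted p = 0.0115, adjusted p = 0.0616).

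Rb1, which encodes the retinoblastoma protein (ENSMUSG00000022105, chr14:73192858-73325951), had the fewest counts of the 7 genes tested. Its counts were 48 and 30 in the 1-nitropyrene libraries and 29 and 20 in the control libraries, or 41.3 and 23.8 CPM against 22.1 and 16.9 CPM. The lower 1-nitropyrene library lay just above the higher control, and the 1-nitropyrene libraries differed 1.74-fold from each other. The estimate was 1.65-fold with a 95% interval of 1.06 to 2.57 and did not pass the threshold (edgeR log2 fold change 0.72 ± 0.33 SE, adjusted p = 0.110). It rested on 1-nitropyrene replicate 2: without that library the log2 fold change was 0.30 (edgeR adjusted p = 0.691), and without replicate 3 it was 1.08 (edgeR adjusted p = 0.0319). RefSeq places the protein-coding gene Lpar6 and the miRNA gene Mir687 within the span of Rb1, and how reads on overlapping genes were assigned is not given in the sources used here.

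**Figure D1:**
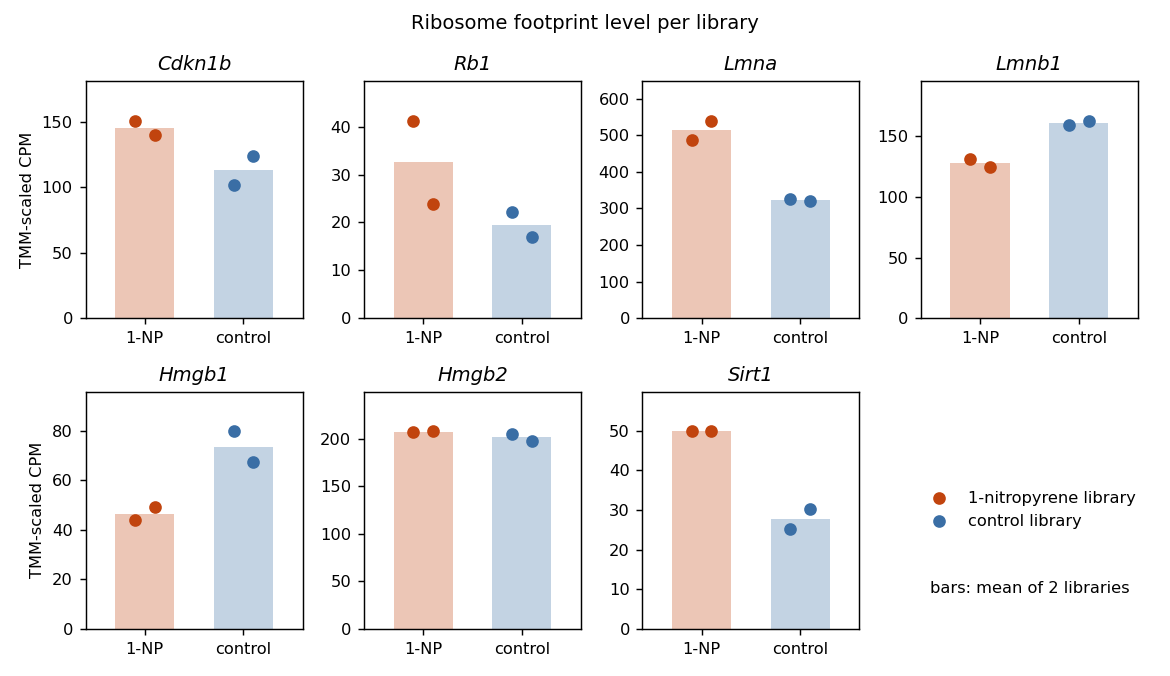
Footprint levels in TMM-scaled CPM for the 7 genes that passed the filter, each panel with its own axis from 0. Points are libraries (1-NP, 1-nitropyrene, left, and control, right) and bars the mean of 2 libraries. In both 1-nitropyrene libraries Lmna, Sirt1, Cdkn1b and Rb1 lay above both controls, and Hmgb1 and Lmnb1 below both. The groups did not overlap for Hmgb2 either, with its 4 values between 198 and 208 CPM. Groups did not overlap for 57.3% of all genes tested. Lmna, Sirt1 and Hmgb1 were called, and of these calls that of Lmna held in all 12 alternatives, while the other calls did not.

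Of the lamins, Lmna rose, and the estimate for Lmnb1 was lower than control but did not pass the test. Lmna, which encodes lamins A and C, the A-type proteins of the nuclear lamina (ENSMUSG00000028063, chr3:88481148-88509932), had 567 and 682 counts in the 1-nitropyrene libraries and 428 and 378 in the control libraries. These were 488 and 540 CPM against 326 and 319 CPM, with a wide gap between the groups. Lmna rose 1.6-fold, with a 95% interval of 1.43 to 1.78 (514 ± 37.0 CPM in 1-nitropyrene cells and 322 ± 4.69 CPM in control cells, SD, n = 2 each; log2 fold change in edgeR 0.67 ± 0.080 SE, adjusted p = 6.37e-15). The DESeq2 Wald test called it too (adjusted p = 8.03e-06), where 11.9% of the 2674 genes given an adjusted p were called. RefSeq lists 3 curated Lmna transcripts, and counts per gene cannot divide lamin A from lamin C.

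Lmnb1 (ENSMUSG00000024590) encodes lamin B1, the B-type lamin whose loss from the lamina marks senescent cells, and lies on chromosome 18. The lamin B1 protein was not measured here. It had 152 and 158 counts in the 1-nitropyrene libraries and 209 and 193 in the control libraries, or 131 and 125 CPM against 159 and 163 CPM. Both 1-nitropyrene libraries lay below both controls, and replicates differed by at most 1.05-fold. The 1-nitropyrene level was 0.795 of the control level (95% interval 0.659 to 0.960), which did not pass the threshold with TMM scaling (edgeR log2 fold change -0.33 ± 0.14 SE, unadjusted p = 0.0170, adjusted p = 0.0814). Whether it passed depended on the scaling. With total counts the log2 fold change was -0.49 and Lmnb1 was called lower (edgeR adjusted p = 0.00448), as were 14.2% of all genes tested under that scaling. Without the 2 IDs with the most counts in the totals it was -0.42 (edgeR adjusted p = 0.0179). Under that setting 843 of the 7719 genes tested were called lower, against 585 with TMM.

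The balance between the lamins does not depend on how libraries are scaled, because both counts come from the same library. Lmnb1 had 0.268 and 0.232 counts per Lmna count in the 1-nitropyrene libraries and 0.488 and 0.511 in the control libraries. The 4 ratios fell into separate groups with little spread within either. How often ratios of other gene pairs separate in this way was not computed, for this ratio or the later ones. On the log2 scale, with 0.5 added to each count, the ratio was -2.0 ± 0.15 in 1-nitropyrene cells and -1.0 ± 0.046 in control cells (SD, n = 2 each; exact two-sided permutation p = 0.333, the smallest this design allows; adjusted p = 0.444 over 4 ratios). The difference was -1.0, or a ratio 0.50 times that of control cells. With TMM scaling the larger part came from Lmna (log2 fold change 0.67, called) and the smaller from Lmnb1 (-0.33, not called). With total counts the 2 values were 0.51 and -0.49. The ratio thus does not by itself show a fall of Lmnb1. The fitted fold changes of Lmnb1 and Lmna differed by -1.01 ± 0.16 (SE, taking the 2 estimates as independent).

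**Figure D2:**
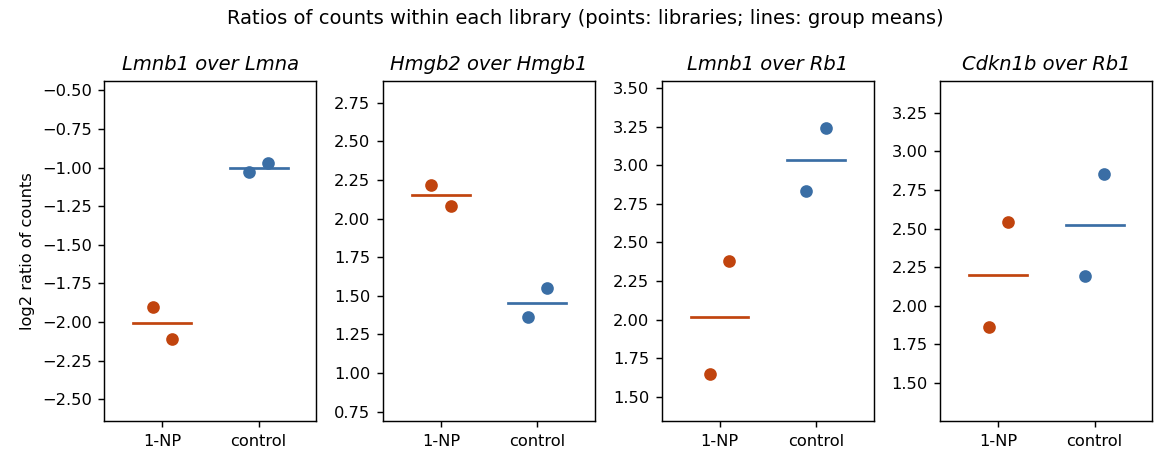
Log2 ratios of counts of 2 genes in the same library, with 0.5 added to each count. Points are libraries (1-NP, 1-nitropyrene, left, and control, right), lines are group means, and every panel spans the same range. The groups are apart for Lmnb1 over Lmna, Hmgb2 over Hmgb1 and Lmnb1 over Rb1 and overlap for Cdkn1b over Rb1. Among single genes tested, 57.3% had groups that did not overlap in CPM. The share for ratios of other gene pairs was not computed.

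HMGB1 and HMGB2 are related DNA-bending proteins of chromatin. Hmgb1 (ENSMUSG00000066551, chr5:149046702-149053057) had 51 and 62 counts in the 1-nitropyrene libraries and 105 and 80 in the control libraries, or 43.9 and 49.1 CPM against 79.9 and 67.5 CPM. Every 1-nitropyrene value lay below every control value. Hmgb1 fell to 0.631 of its control level, with a 95% interval of 0.469 to 0.849 (46.5 ± 3.69 CPM in 1-nitropyrene cells and 73.7 ± 8.75 CPM in control cells, SD, n = 2 each; log2 fold change in edgeR -0.66 ± 0.22 SE, adjusted p = 0.0193). The call did not hold with DESeq2 (adjusted p = 0.238) or without control replicate 1 (edgeR log2 fold change -0.53, adjusted p = 0.236), 1-nitropyrene replicate 2 (-0.57, adjusted p = 0.182) or 1-nitropyrene replicate 3 (-0.75, adjusted p = 0.0548). The Hmgb1 call held with limma-voom, another test (adjusted p = 0.0206), and with total counts (edgeR adjusted p = 0.00223). In all, 5 of 12 alternatives lost it. RefSeq lists 13 pseudogenes named after Hmgb1 on 11 chromosomes, 1 of them transcribed. How reads shared with such copies were counted is not given in the sources used here, so the level of Hmgb1 is uncertain.

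Hmgb2 (ENSMUSG00000054717, chr8:57511843-57515999) had 240 and 263 counts in the 1-nitropyrene libraries and 270 and 235 in the control libraries. After scaling these were 207 and 208 CPM against 205 and 198 CPM, values nearly level with each other. The 1-nitropyrene level was 1.03 times the control level and did not pass the test (edgeR log2 fold change 0.04 ± 0.11 SE, adjusted p = 0.872). The 95% interval of 0.879 to 1.2 leaves room for a small change either way, and the sign turned with total counts (-0.12). Within libraries there were 4.71 and 4.24 Hmgb2 counts per Hmgb1 count with 1-nitropyrene and 2.57 and 2.94 in control cells. The groups did not overlap, and the log2 ratio was 2.15 ± 0.10 in 1-nitropyrene cells and 1.45 ± 0.13 in control cells (SD, n = 2 each; exact two-sided permutation p = 0.333, adjusted p = 0.444), a 1.62-fold higher ratio. The fitted fold changes of Hmgb2 and Hmgb1 differed by 0.70 ± 0.25 (SE).

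Sirt1 encodes a nuclear NAD-dependent deacetylase that acts on histones and p53 (ENSMUSG00000020063, chr10:63319005-63339035). It had 58 and 63 counts in the 1-nitropyrene libraries and 33 and 36 in the control libraries, or 49.9 CPM in each 1-nitropyrene library against 25.1 and 30.4 CPM. The groups were well apart, on few counts. Sirt1 rose 1.80-fold, with a 95% interval of 1.25 to 2.61 (49.9 ± 0.00547 CPM in 1-nitropyrene cells and 27.7 ± 3.73 CPM in control cells, SD, n = 2 each; log2 fold change in edgeR 0.85 ± 0.27 SE, adjusted p = 0.0152). Counting error on 58 and 63 counts is larger than the SD of the 1-nitropyrene values, which therefore understates their error. Sirt1 was also called with limma-voom (adjusted p = 0.0154), but 5 of 11 alternatives lost the call. The call did not hold with total counts (log2 fold change 0.69, edgeR adjusted p = 0.0557), with DESeq2 on the genes edgeR tested (adjusted p = 0.250), or without control replicate 1 (0.71, edgeR adjusted p = 0.163), 1-nitropyrene replicate 2 (0.87, edgeR adjusted p = 0.0937) or 1-nitropyrene replicate 3 (0.85, edgeR adjusted p = 0.0673).

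**Figure D3:**
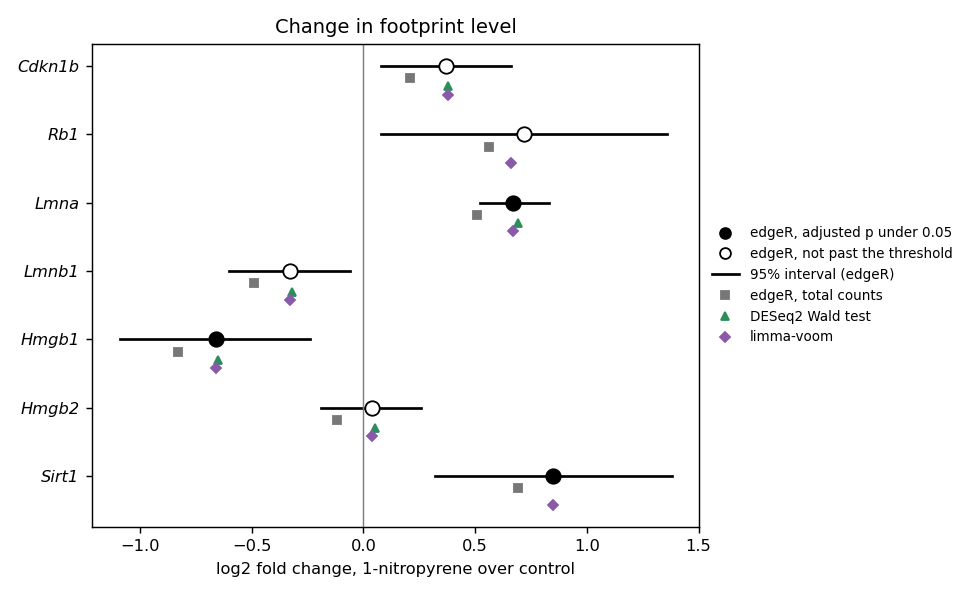
Log2 fold changes of footprint level, 1-nitropyrene over control, for the 7 genes tested. Large points are edgeR estimates with TMM (filled where the adjusted p is under 0.05), lines their 95% intervals for each gene alone, and small markers other settings. Lmna, Hmgb1 and Sirt1 are filled, and total counts shift every gene to the left.

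Of the 7 genes tested, 2 were called higher (Lmna and Sirt1), 1 lower (Hmgb1), and 4 did not pass (Cdkn1b, Rb1, Lmnb1 and Hmgb2). Cdkn2a and Cdkn2b could not be tested. In CPM the groups did not overlap for each of the 7, as for 57.3% of all genes tested. The median log2 fold change of the 7 was 0.37, against -0.0076 over all genes tested, and the medians were 0.21 and -0.17 with total counts. Ranked among all genes tested by log2 fold change, Sirt1 stood at the 94.7th percentile, Rb1 at the 92.5th, Lmna at the 91.4th and Cdkn1b at the 78.7th. Hmgb2 stood at the 53.8th, Lmnb1 at the 26.7th and Hmgb1 at the 11.7th. The share of genes called grew with coverage, which bears on reading these calls. Lmna, Hmgb2, Lmnb1 and Cdkn1b lay in the highest of 4 bins of near-equal size by mean count, where 36.4% were called. Hmgb1 and Sirt1 lay in the next bin, where 13.9% were called, and Rb1 in the one below it, where 10.2% were.

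**Figure D4:**
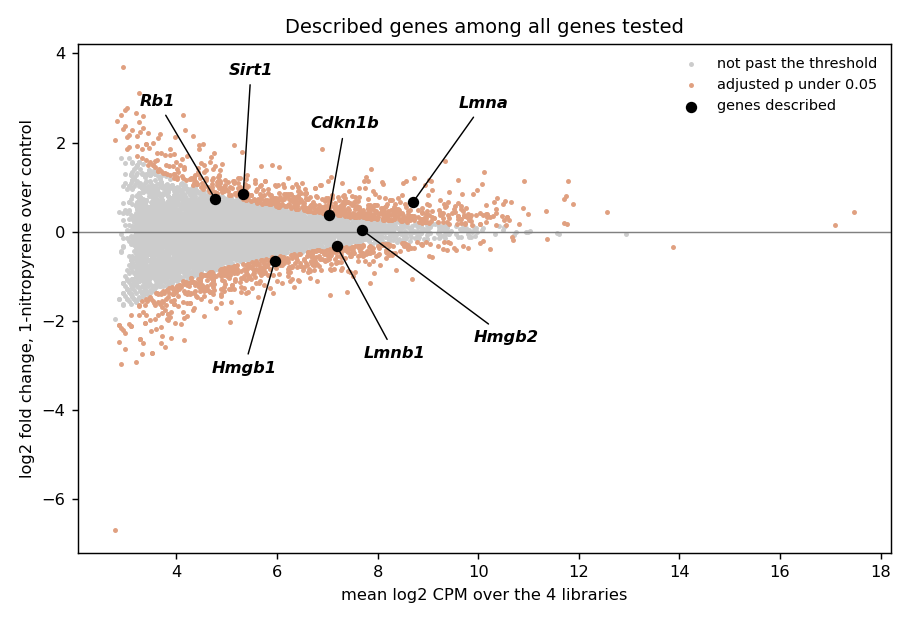
Log2 fold change, 1-nitropyrene over control, against mean log2 CPM for the 7719 genes tested, coloured where the edgeR adjusted p is under 0.05. Black points are the 7 genes described, of which Lmna, with the most counts among them, lies clear of the uncalled genes at its level, while Hmgb1 and Sirt1 lie near the edge of them.

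Ratios to Rb1 were computed to set the lamina and the inhibitor beside the gene of the protein that the inhibitors act through. These cells carry the large T antigen, which binds that protein, and whether the inhibitors act through it here was not tested. Lmnb1 had 3.17 and 5.27 counts per Rb1 count in the 1-nitropyrene libraries and 7.21 and 9.65 in the control libraries. These did not overlap, at a log2 difference of -1.02 (exact two-sided permutation p = 0.333, adjusted p = 0.444), which was -0.66 without 1-nitropyrene replicate 2. Cdkn1b had 3.67 and 5.90 counts per Rb1 count with 1-nitropyrene and 4.62 and 7.35 in control cells, which overlapped (log2 difference -0.32, exact two-sided permutation p = 0.667, adjusted p = 0.667). This difference was 0.01 without control replicate 2 and 0.02 without 1-nitropyrene replicate 2. A ratio of Cdkn2b to Cdkn2a had no counts to rest on.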

How the data were processed

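Ribosome footprints were measured in 4 libraries of MLE-12 cells. Per the labels' protocols, cells were washed in PBS with cycloheximide, and rRNA-depleted footprints went into a miRNA library kit. The authors deposited whole-number footprint counts per Ensembl gene ID, not normalized, with 1 column per library and 0 other sample columns. Per the submitters' processing notes, mm10 was the build and featureCounts, HISAT2, Bowtie, cutadapt and DESeq2 were used, with versions and settings not given in the sources used here.

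Genes were kept with edgeR's filterByExpr (minimum count 10, minimum total 15), which left 7719 IDs with 98.6% of the counts, scaled with TMM and tested with the quasi-likelihood test of edgeR 4.0.16 (R 4.3.3), with no covariates; limma 3.58.1 and DESeq2 1.42.0 served for alternatives. The prior degrees of freedom were infinite, so each gene's spread is that of the abundance trend. Standard errors are fold changes divided by the root of the F statistic. Ratios of 2 genes within a library used a pseudocount of 0.5. The scripts were tested on simulated data. The alternatives were other scalings, filters and tests, and leaving out each library. DESeq2 on the genes edgeR tested was added after seeing the data. All 9 genes are named; they and the lists were chosen with earlier results of these data known. Gene symbols of the 9 were given with their IDs. The RefSeq gene table (GRCm38.p6) gives an Ensembl ID for 0 of its 49997 genes, so 8 further lists (70 symbols: other CDK inhibitors, G1 cyclins, E2F factors, lamina, HMG and sirtuin genes, and lung and other cell type markers) could not be tied to the table and are not analysed here. The labelled cell type was therefore not checked against markers.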

Additional observations from a re-analysis of the deposited data

How the results depend on the processing

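Of 82 values of a gene under an alternative with an adjusted p, 67 kept direction and call, 10 lost a call, 3 gained one and 2 turned direction. Lmna kept its rise and its call in all 12 alternatives (log2 fold change 0.51 to 0.76, adjusted p of at most 2.79e-05), and Cdkn1b stayed above 0 and uncalled in all 12 (0.21 to 0.52, adjusted p from 0.0577). Total counts turned Hmgb2 to -0.12 and took the call from Sirt1 (0.69, adjusted p = 0.0557), while Lmnb1 was called at -0.49. Total counts without the 2 IDs with the most counts turned Hmgb2 to -0.05 and called Lmnb1 at -0.42. Hmgb1 lost its call with DESeq2 (-0.65, and -0.66 on the genes edgeR tested, adjusted p = 0.285), and Sirt1 with DESeq2 on those genes (0.85). DESeq2's own filter gave Rb1 and Sirt1 no adjusted p. Without 1 library, taking the remaining sample's spread from the other group, log2 fold changes ran from -0.77 to -0.53 for Hmgb1, 0.71 to 0.99 for Sirt1, 0.30 to 1.08 for Rb1, -0.35 to -0.30 for Lmnb1 and 0.02 to 0.06 for Hmgb2. The log2 difference in the Lmnb1 over Lmna ratio then ran from -1.11 to -0.90, in Hmgb2 over Hmgb1 from 0.60 to 0.79, in Lmnb1 over Rb1 from -1.38 to -0.66, and in Cdkn1b over Rb1 from -0.65 to 0.02, turning to 0.01 without control replicate 2 and 0.02 without 1-nitropyrene replicate 2. Over all genes, edgeR called 1332 (747 higher, 585 lower), DESeq2 318 (239 and 79), DESeq2 on the genes edgeR tested 345 (243 and 102), total counts 1508 (410 and 1098), and fits without 1 library 572 to 834 (382 to 480 higher, 190 to 354 lower). The causes were not tested. No paired analysis was possible because just 1 replicate number, 2, occurs in both groups. The alternatives gave no value for Cdkn2a and Cdkn2b, which had no counts in any library.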
